A study of Saccharomyces cerevisiae with 2 samples.

Results

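Deletion strains of 8 genes of DNA replication were followed in budding yeast that overexpressed LCD1: the flap endonuclease gene RAD27 (YKL113C), the polymerase delta subunit gene POL32 (YJR043C), the polymerase epsilon subunit genes DPB3 (YBR278W) and DPB4 (YDR121W), the RNase H2 subunit genes RNH201 (YNL072W), RNH202 (YDR279W) and RNH203 (YLR154C), and the topoisomerase gene TOP1 (YOL006C). They were chosen by function, though with earlier results of these data known. All 8 were found among the 5325 deletion strains that the platform annotation names. Per the labels, 5896 heterozygous diploid knockout strains that can be turned into haploids were pooled and received a GAL1-LCD1 plasmid or a control plasmid, with URA3 as the marker on both. After sporulation, both pools of haploids grew on selective medium with 2% galactose, which switches the GAL1 promoter on, for 3 days at 30 °C. Both pools thus came from the same set of deletions and shared the marker and the carbon source, and they differed in the plasmid. The abundance of each strain was read from tags amplified from genomic DNA (the molecule field of the labels names RNA) on 2 arrays, with the LCD1 pool in Cy3 and the control pool in Cy5 on each, so that dye and pool cannot be told apart. The titles call each array a numbered experiment, but nothing in the labels says whether the arrays came from separate cultures. The spread between them may therefore be technical.

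The lagging strand of a replication fork is made as short Okazaki fragments. Polymerase delta, with its subunit Pol32, extends each fragment into the next one and lifts up a flap, which the nuclease Rad27 cuts before the ends are ligated. RNase H2 removes ribonucleotides from DNA, with Rnh201 as its catalytic subunit, and Top1 relaxes the supercoils that form around forks and transcribed genes. Polymerase epsilon makes most of the leading strand, and Dpb3 and Dpb4 are its small histone-fold subunits. The product of LCD1 (also DDC2) binds the checkpoint kinase Mec1, which responds to stalled forks and single-stranded DNA.

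Values are log2 ratios, LCD1 pool over control pool, averaged over the spots of a tag and centred on the median of all tags of that block. Centring took off 0.087 (first tag) and 0.17 (second tag) on array 1 and 0.089 and 0.15 on array 2, so that values without it would be about that much more positive. Each strain has a first and a second tag, named here by their place on the array, since no source says which is upstream. The direction is a likely one: the dye on top of the deposited ratio is not given in the sources used here. It was set by the LCD1 deletion strain, whose deposited ratios were all below 1 (first tag 0.05 and 0.03, second tag 0.44 and 0.73 on arrays 1 and 2) and which can live only with the LCD1 plasmid, because LCD1 is essential. The median deposited value was also below a ratio of 1, at -0.14 in log2 on each array. In the direction chosen, the first tag of the LCD1 strain ranked 2 from the highest among first tags on both arrays. Its second tag ranked 455 and 1315 among second tags, so the direction rests mainly on 1 tag of 1 strain. If the deposited ratio ran the other way, every lower value below would be higher and every higher one lower. No intensities came with the ratios, so how far a tag stood above background cannot be said. With 2 arrays, precision is limited by their number.

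The strain without RAD27 had the most negative value of the 8 and stood 3.21-fold lower in the LCD1 pool. Its array values were -1.81 on array 1 and -1.55 on array 2, a mean of -1.68 ± 0.19 (SD, n = 2 arrays). This strain has 6 spots for each tag, and all 24 spot readings pointed the same way. On array 1 the first tag read from -2.16 to -1.96 over its 6 spots and the second from -1.82 to -1.40. On array 2 the first tag read from -1.95 to -1.42 and the second from -1.69 to -0.99. The first tag was the lower of the pair on both arrays, by 0.45 and 0.40. By limma the 95% interval ran from -2.10 to -1.26, and the adjusted p over all strains was 0.113, which did not pass. The strain ranked 44 of 5325 from the lowest, and 5 of the 793 strains that have 6 spots or more for each tag.

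**Figure D1:**
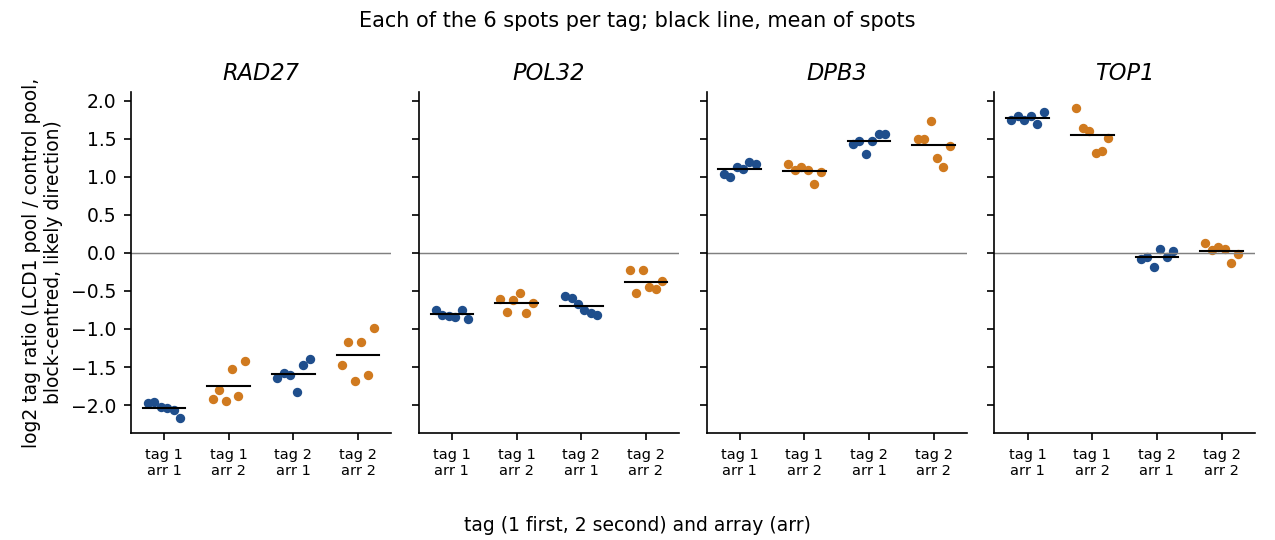
Log2 tag ratio (y axis, LCD1 pool over control pool, centred per tag block) of each of the 6 spots per tag for the strains without RAD27, POL32, DPB3 and TOP1, by tag and array (x axis); black lines are means of spots. RAD27 lies near -2.04 to -1.35 on every tag and DPB3 near 1.08 to 1.47, whereas TOP1 is high on its first tag (1.78 and 1.55) and near 0 on its second.

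The strain without POL32, which affects polymerase delta and also the translesion polymerase zeta, lay lower too, but by less. Its array values were -0.75 and -0.52, with a mean of -0.64 ± 0.16 (SD, n = 2 arrays), a 1.55-fold difference. The first tag gave -0.81 on array 1 and -0.66 on array 2, the second -0.70 and -0.38. All 24 spot readings were below 0, from -0.87 to -0.22. The limma interval of -1.04 to -0.23 left out 0, and the adjusted p was 0.158. The RAD27 strain was below the POL32 strain on every tag of both arrays, by 0.89 to 1.23, and by a mean of 1.04 ± 0.021 (SD, n = 2 arrays).

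The DPB3 strain went the other way and had the highest value of the 8. It read 1.29 on array 1 and 1.25 on array 2, a mean of 1.27 ± 0.028 (SD, n = 2 arrays), or 2.41-fold higher in the LCD1 pool. On array 1 the first and second tags gave 1.11 and 1.47, and on array 2 they gave 1.08 and 1.42. The 24 spot readings ran from 0.91 to 1.74. The limma interval was 0.91 to 1.63 with an adjusted p of 0.113, which did not pass. The strain ranked 42 of 5325 from the highest, and 13 of the 793 strains with 6 spots or more.

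Dpb4 is the histone-fold partner of Dpb3, and the strain without it stood near 0. Its array values were -0.086 and 0.068, a mean of -0.0086 ± 0.11 (SD, n = 2 arrays), from 1 spot for each tag. The first tag gave -0.043 on array 1 and -0.015 on array 2, the second -0.13 and 0.15. Without centring its mean was 0.12, so its sign rests on that step. The limma interval of -0.39 to 0.37 (adjusted p 0.969) reaches 1.31-fold lower and 1.29-fold higher. The DPB3 strain exceeded the DPB4 strain on each tag of each array, by 1.09 to 1.60, with a mean difference of 1.27 ± 0.14 (SD, n = 2 arrays). That difference is larger than the spread between arrays of either strain, although no test between strains was made with 2 arrays.

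Dpb4 is also a subunit of the chromatin remodelling complex ISW2. Strains without its other subunits stood close to 0 as well: ISW2, the ATPase gene, at -0.20 ± 0.025, ITC1 at -0.19 ± 0.071 and DLS1, the gene of a histone-fold subunit, at 0.030 ± 0.095 (SD, n = 2 arrays each). The other polymerase zeta genes lay on opposite sides of 0. The strain without REV3, the catalytic subunit, stood at -0.26 ± 0.028 and that without REV7, its accessory subunit, at 0.46 ± 0.063. Of these 5 partner strains 0 passed limma over all strains, and 0 were 2-fold apart. REV7 alone had an unadjusted p under 0.05 by limma, on the higher side, as did 11.6% of all strains.

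The RNase H2 strains stayed near 0, each with 1 spot for each tag. The strain without the catalytic subunit RNH201 had array values of -0.093 and 0.096 (mean 0.0014 ± 0.13, SD, n = 2 arrays). The strain without RNH202, a subunit required for activity, had -0.34 and -0.32 (mean -0.33 ± 0.017), and its 4 tag values were all below 0, from -0.52 to -0.17. The strain without RNH203, the remaining subunit, had -0.058 and 0.32 (mean 0.13 ± 0.26). The signs of RNH201 and RNH203 changed between arrays, and that of RNH202 did not. The limma intervals were -0.39 to 0.39, -0.69 to 0.027 and -0.34 to 0.60 for RNH201, RNH202 and RNH203, with adjusted p values of 0.995, 0.242 and 0.632. RNH202 lay below RNH201 by 0.33 ± 0.12 and below RNH203 by 0.46 ± 0.25 (SD, n = 2 arrays), which no test compared. The intervals of RNH201 and RNH203 hold all 3 means, whereas that of RNH202 ends below the mean of RNH203.

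The value of the TOP1 strain rests on 1 of its tags. The first tag read 1.78 and 1.55 on arrays 1 and 2, which ranked 107 and 62 from the highest among first tags, and the second read -0.050 and 0.024. The 6 spots of each tag were close together: from 1.70 to 1.86 and 1.31 to 1.91 for the first tag, and from -0.19 to 0.045 and -0.14 to 0.13 for the second. No spot of the first tag overlapped any spot of the second. The mean over both tags was 0.83 ± 0.053 (SD, n = 2 arrays), with an adjusted p of 0.126 by limma, but its small SD leaves out this disagreement. The tags differed by 1.68 ± 0.21 (limma interval 1.01 to 2.35, adjusted p 0.214), and why was not tested.

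TOP1 was the 1 strain of the 8 whose tags differed by at least 2-fold, with the same tag higher, on both arrays, a rule that took 7.87% of the 5309 strains with all 4 tag values and 5.04% of the 793 with 6 spots or more. In limma's test of the tag difference 0 of the 8 passed, as did 0% of all strains. At an unadjusted p under 0.05 TOP1 alone passed, against 14.9% of all strains. In the other strains the mean difference between tags ran from -0.43 for RAD27 to 0.19 for RNH201.

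**Figure D2:**
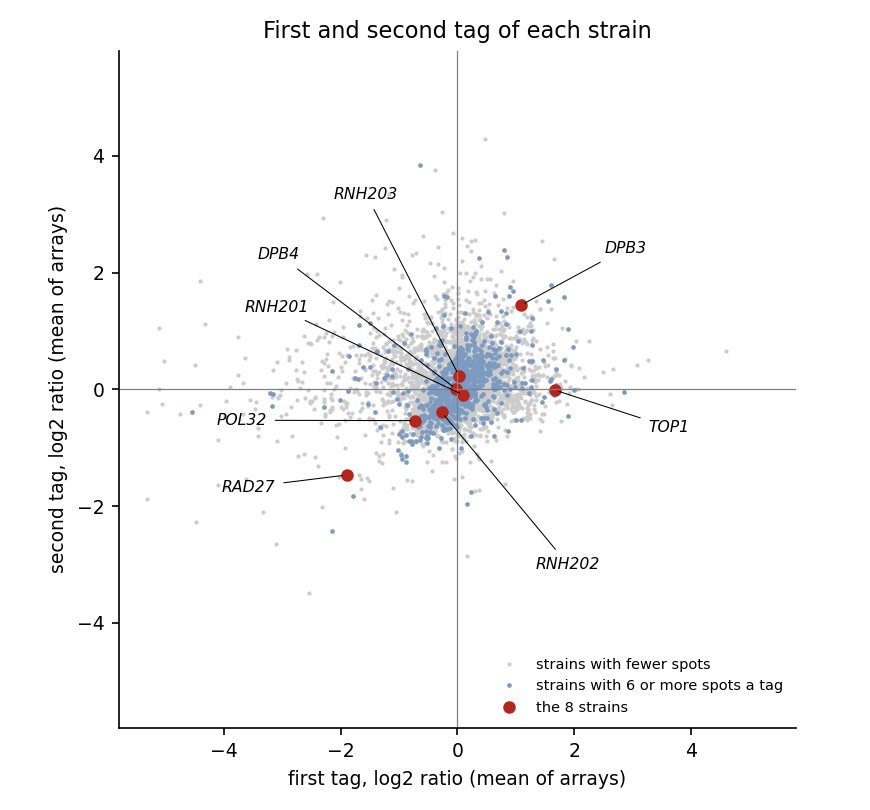
Second tag against first tag (log2 ratio, mean of 2 arrays) for all strains, with the 8 strains in red and strains with 6 or more spots a tag in blue. RAD27 and DPB3 lie far from 0 on both tags, and TOP1 lies at 1.67 on the first tag and -0.013 on the second.

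**Figure D3:**
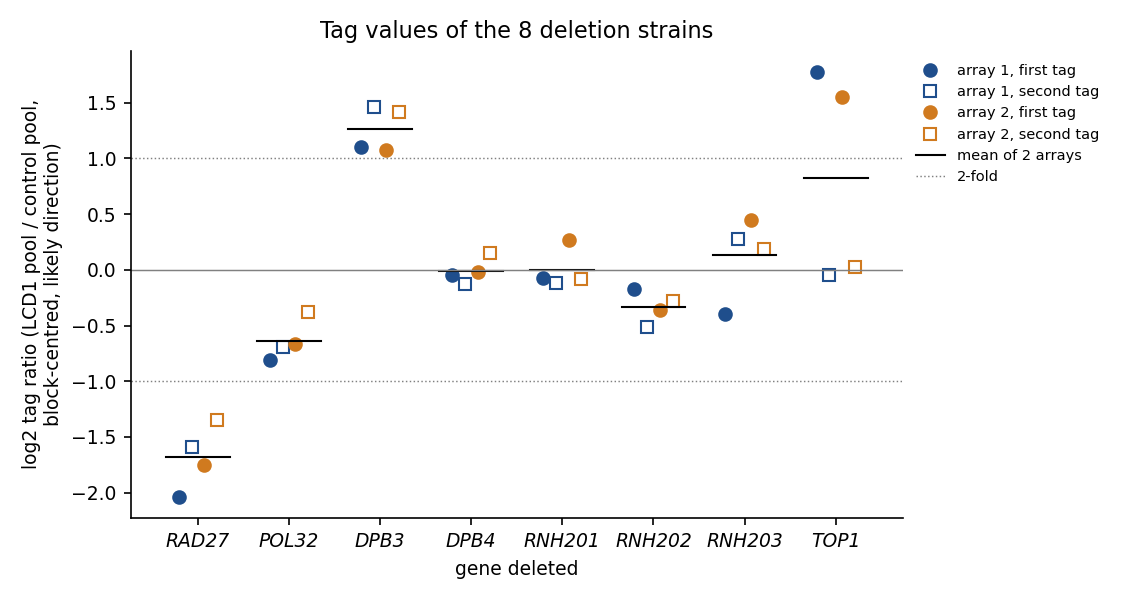
Log2 tag ratio (y axis) of each of the 8 deletion strains (x axis) by array (colour) and tag (circle or square), with the mean of 2 arrays as a black line and 2-fold marked by dotted lines. RAD27 is below the lower dotted line and DPB3 above the upper one on all 4 tag values, and the RNase H2 and DPB4 strains lie between -0.52 and 0.45.

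Counted together, the 8 strains split evenly, with 4 means below 0 and 4 above and a median of -0.0036, where the median of all strains was 0.036. Without centring these medians were 0.12 and 0.16. A size rule asked for a difference of 2-fold or more, with 1 sign, on both arrays. It took RAD27 on the lower side, against 1.82% of all strains, and DPB3 on the higher side, against 0.695%. In counts these were 97 and 37 of all strains, and 78 and 60 without centring. Among strains with 6 spots or more it took 1.26% on the lower and 1.64% on the higher side. When the rule was applied to both tags of both arrays, it took the same 2 strains, against 0.376% of all strains lower and 0.15% higher. RAD27, POL32, DPB3 and RNH202 kept 1 sign on all 4 tag values, as did 1766 of the 5325 strains.

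By limma 0 of the 8 passed in either direction, as did 0% of all strains lower and 0% higher. At an unadjusted p under 0.05 limma gave RAD27 and POL32 on the lower side, against 10.8% of all strains, and DPB3 and TOP1 on the higher side, against 11.6%. These 4 are the strains with 6 spots for each tag, while the 4 strains with 1 spot for each tag did not reach it. Of all 793 strains with 6 spots or more, 12.5% reached it on the lower and 14.1% on the higher side. Over strains, which share the arrays and are no replicates, the Pearson correlation of the arrays was 0.66 in that class and 0.53 in the 4423 strains with 1 spot for each tag. Between tags it was 0.32 and 0.12 in these classes. The median SD between arrays was 0.12 and 0.16.

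Fitted to the 4 tag values of each strain, limma gave RAD27 and DPB3 an adjusted p of 0.0415, POL32 0.0828 and TOP1 0.301. It called 0.263% of all strains lower and 0.188% higher. Both tags of an array read the same pools, so this p is too small. With the array as a fixed term in that fit, RAD27 and DPB3 had an adjusted p of 0.176. That fit still takes its error from the tags within an array, so it does not make the array the replicate.

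**Figure D4:**
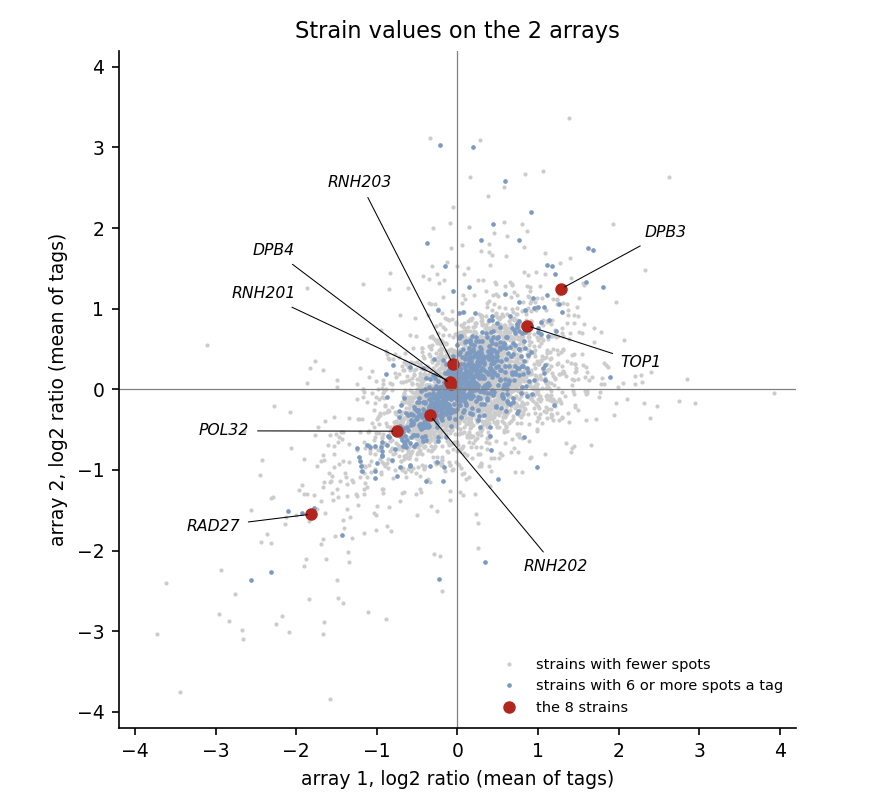
Array 2 against array 1 (log2 ratio, mean of both tags) for all strains, with the 8 strains in red and strains with 6 or more spots a tag in blue. RAD27 (-1.81, -1.55) and DPB3 (1.29, 1.25) lie at opposite ends near the diagonal, and DPB4, RNH201 and RNH203 lie near 0.

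Of 12 further genes of Okazaki fragments, helicases and topoisomerases that are not essential, 1 passed the size rule, CTF4, which links the replicative helicase to polymerase alpha. On the lower side that rule took 1.82% of all strains. The CTF4 strain stood at -1.20 ± 0.051 (SD, n = 2 arrays; limma adjusted p 0.113), with tag values from -1.55 to -0.92, and was short of 2-fold on the second tag of array 2. The median of the 12 was 0.075, with 4 below 0 and 8 above. Next in size were MGS1, an ATPase gene that interacts with polymerase delta (0.53 ± 0.019), ELG1, the gene of the alternative clamp loader that unloads PCNA (-0.47 ± 0.11), and TDP1, whose product removes trapped Top1 from DNA (0.46 ± 0.39). By limma 0 of the 12 passed over all strains. At an unadjusted p under 0.05 there were 2 lower and 1 higher, against 10.8% and 11.6% of all strains. Strains without EXO1, a nuclease that can act on flaps, and RNH1, the gene of RNase H1, stood at -0.16 ± 0.046 and 0.092 ± 0.61. These 2 were named after their values were seen, for their relation to RAD27 and RNase H2. The array values of RNH1, -0.34 and 0.52, had opposite signs.

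The 17 essential genes of the same machinery give tag readings but no measure of growth, since haploids that lack them should not grow with either plasmid. Their median was -0.16, with 11 below 0 and 6 above, and 0 passed the size rule or limma over all strains. By limma 6 were lower and 2 higher at an unadjusted p under 0.05, against 10.8% and 11.6% of all strains. The tags of this list disagreed, with a median of -0.97 for the first tag alone and 0.060 for the second. The largest were POL30, the gene of PCNA (-1.40 ± 0.95), PRI1, a primase gene (-1.01 ± 0.47), and RFC5, a clamp loader gene (-0.86 ± 0.22). Their arrays lay further apart than those of RAD27 or DPB3: POL30 read -2.07 on array 1 and -0.73 on array 2. Of the essential partners of the small subunits, POL2 and DPB2 of polymerase epsilon stood at -0.16 ± 0.38 and 0.0038 ± 0.099. POL3 and POL31 of polymerase delta stood at -0.29 ± 0.38 and -0.48 ± 0.79. These 4 were also named after their values were seen.

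**Figure D5:**
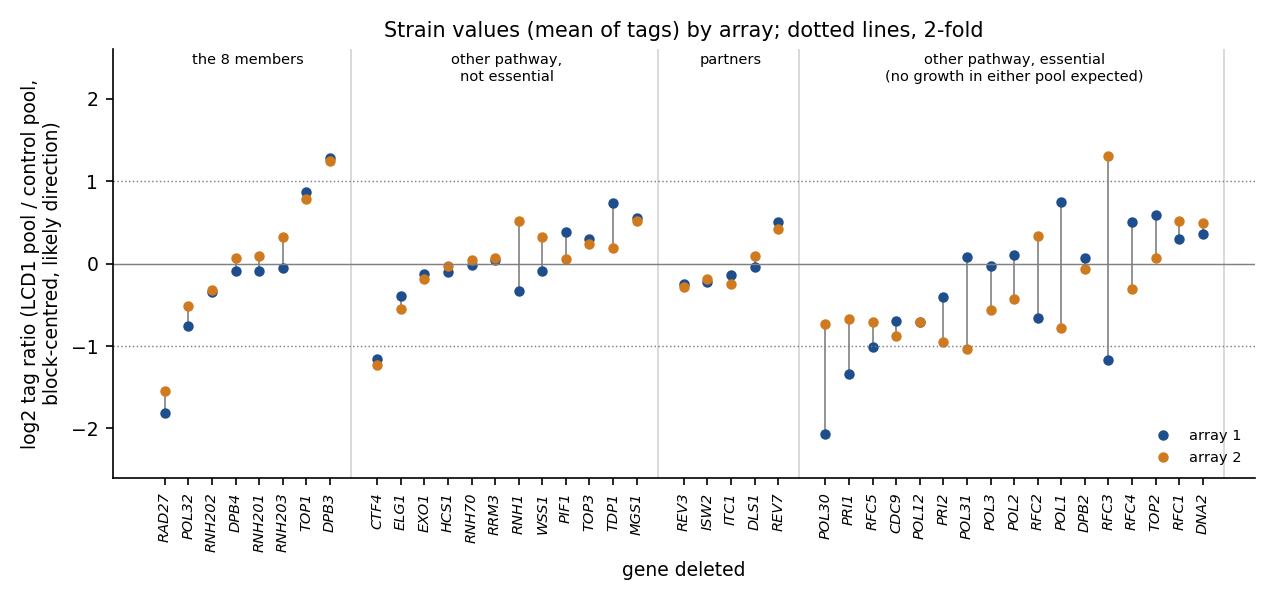
Log2 ratio of each strain (y axis, mean of both tags) on array 1 and array 2 for the 8 strains and for further replication genes (x axis), grouped as not essential, partner complexes and essential, with 2-fold marked by dotted lines. Outside the 8 strains only CTF4 is past 2-fold in the same direction on both arrays, and several essential genes differ widely between arrays, such as POL30 and RFC3, which is past 2-fold in opposite directions.

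The strains most like RAD27 over the 4 tag values, by Euclidean distance, lacked MMS1, a subunit of the Rtt101 ubiquitin ligase (distance 0.39, mean -1.59 ± 0.075), the mannosyltransferase gene MNN11 (0.49, mean -1.76 ± 0.13) and the SAGA gene SGF29 (0.53, mean -1.54 ± 0.21). Nearest to DPB3 were ECM9 (distance 0.40, mean 1.21 ± 0.21), the Mediator gene NUT1 (0.44, mean 1.25 ± 0.013) and HAL1 (0.45, mean 1.43 ± 0.17). Those nearest to TOP1 had its split between tags, which follows from choosing them by distance over the 4 tag values and is no separate finding. AFR1 (distance 0.27) read 1.90 and 1.40 on the first tag and -0.23 and 0.028 on the second, and SIP1 (0.43) and YOR292C (0.43) followed the same pattern.

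A deletion can disturb the gene beside it, so the nearest measured strain on each side was read for every member, in the gene order of assembly R64. The 16 neighbouring strains had means from -0.34 to 0.86 with a median of 0.13, and 0 passed the size rule. That rule took 1.82% of all strains on the lower and 0.695% on the higher side, so a count of 0 among 16 is near those shares. Some of them, such as ABF1 and RPB11, are essential and give no measure of growth. The strains named next were picked after their values were seen. Beside RAD27, the strain without the DNA repair gene APN1 stood at -0.34 ± 0.49, and beside DPB3 the strains without PPS1 and PAF1 stood at -0.20 ± 0.29 and 0.12 ± 0.023. The neighbour of POL32 with the highest value, VPS55 (0.86 ± 0.0015), went the other way from POL32. CSI2, beside TOP1, had a split like that of TOP1: its first tag read 0.97 and 1.23 and its second -0.098 and 0.016. Tags at least 2-fold apart, with the same tag higher on both arrays, were found in 7.87% of 5309 strains. ABF1, beside RAD27, was also split by that rule, with its second tag higher: -2.07 and -2.53 against 4.89 and 0.97. Whether the splits of CSI2 and TOP1 are related was not tested.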

How the data were processed

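The deposited values are on a log2 scale, a ratio of the 2 dyes. Raised back to linear ratios, 100% were whole hundredths within 0.1 of a hundredth. Per the labels' protocols array images were taken on a GenePix scanner and analysed in GenePix 5.1. The normalization is not given in the sources used here. Of 22575 features, 18794 with a value were named by the platform annotation, for 5325 strains, and symbols were updated through the gene table of assembly R64. The 1242 unnamed features entered no test.

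Signs were turned, spots were averaged per strain and tag block, blocks were centred on their medians, and both tags were averaged per array (Python 3.11.15, pandas 2.3.3). All strains were fitted with limma 3.58.1 in R 4.3.3 (intercept, eBayes, two-sided, Benjamini-Hochberg, adjusted p under 0.05, 1 residual and 2.42 prior degrees of freedom), and again for first minus second tag. The procedure was tested on simulated data. Members were named by function and not by their values. Members, lists and named strains were all chosen with earlier results of these data known. From each list, strains past the size rule and the 3 largest others were named, and for 3 members the 3 nearest strains. Alternatives covered centring, tags, scaling, spots, thresholds and leaving out an array. No tag sequences or positions are given.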

Additional observations from a re-analysis of the deposited data

How the results depend on the processing

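Of 48 refits of the 8 strain values, 44 kept their direction and 0 passed limma (lowest adjusted p 0.0717). The single arrays differed in sign for DPB4, RNH201 and RNH203, as given with their values. Turned were DPB4 without centring (0.12) and, with the second tag alone, DPB4 (0.012), RNH201 (-0.096) and TOP1 (-0.013). By the size rule 1 member was lower and 1 higher. At 3-fold there were 0 and 0, at 1.5-fold 2 were higher, and with the first tag alone 2 were higher, DPB3 and TOP1. Over all strains, 97 lower and 37 higher became 270 and 98 with the first tag, 30 and 80 with the second, 231 and 206 at 1.5-fold and 28 and 4 at 3-fold. Without centring 78 were lower and 60 higher. Without array 1 the counts were 150 and 137, and without array 2 they were 185 and 253. The balance of lower and higher strains thus moved with centring and tag, and the cause was not tested. Limma's 0 calls became 14 lower and 10 higher with 4 tag values, which counts tags as replicates. With the array as a fixed term, which still counts tags as replicates, the calls returned to 0. With 1 spot for each tag, chosen after seeing the data, RAD27 and DPB3 stayed past 2-fold. A trend on the number of features could not be fitted. No pairing of arrays between groups was possible because there is 1 group of ratios. Each ratio already pairs the LCD1 pool with the control pool, and the tag difference was taken within each array. Rounding to hundredths limits low deposited ratios, which are those of strains higher in the LCD1 pool in the direction used here. Unknown signal over background is a limit for all ratios.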
